A study of Homo sapiens with 5 samples.

Results

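The interleukin-1 family genes described here are 10 genes of human keratinocytes, chosen by symbol from the 27933 gene symbols of the deposited expression table. They are the agonist ligands IL1A, IL1B, IL18, IL33 and IL36G, the receptor antagonists IL1RN and IL36RN, the signalling receptor chains IL1R1 and IL1RAP, and the decoy receptor IL1R2. All 10 were in the table, and 6 of them (IL1A, IL1B, IL18, IL36G, IL1RN and IL1RAP) reached the mean of 1 FPKM needed for a test. The other 4 (IL33, IL36RN, IL1R1 and IL1R2) were under it and are described by their values, and were tested only in a fit without that filter.

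Total RNA of HaCaT cells was sequenced in 3 libraries labelled as AHNAK knockdown and 2 libraries labelled as control. HaCaT is an immortalised human keratinocyte line, and the cells of all 5 libraries were kept in the same serum-containing medium with no cytokine named in the labels. AHNAK is a giant scaffold protein found at the cell membrane and in the cytoplasm, and the series title places it downstream of oncostatin M receptor signalling in keratinocyte growth and differentiation. The labels give neither the silencing RNA used nor whether replicates were separate cultures, and the series' design text says knockout where the sample labels say knockdown, and p-values cover no more than the spread between these libraries, which may be technical.

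Interleukin-1 ligands are alarm cytokines that epithelial cells store or make on injury. IL1A and IL1B bind the receptor IL1R1, which then recruits the accessory chain IL1RAP and signals through MYD88 to NF-kappaB, while IL1RN occupies the same receptor without recruiting the accessory chain and IL1R2 binds ligand without signalling. IL1B and IL18 are made as inactive precursors that are cut by caspase-1, IL1A and IL33 are released by damaged cells, and IL36G is an epidermal ligand whose receptor is blocked by IL36RN. Keratinocytes are known to hold large stores of IL1A and IL18 and an intracellular form of IL1RN.

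AHNAK stood at 113.9, 69.6 and 115.3 FPKM in knockdown replicates 1, 2 and 3, against 204.8 and 242.0 FPKM in control replicates 1 and 2. FPKM relates fragments to transcript length and to the fragments mapped in each library. Differences below are those of log2(FPKM + 0.5), knockdown minus control, a scale that understates the change of low genes, and were tested with limma over 12196 genes with Benjamini-Hochberg adjustment and a threshold of 0.05. AHNAK differed by -1.19 (SE 0.24, limma adjusted p = 0.372), and by -0.83 in set A and -1.79 in set B of the libraries, which are named below. Of all 12196 genes 0 passed (0%), while 1427 genes had an unadjusted p under 0.05. By limma, 1 gene passed with a pseudocount of 1, without a variance trend or with robust empirical Bayes, 9 genes passed without control replicate 1, and 1428 with array weights, AHNAK among the last. The values of low genes show 2 sets of libraries that share value steps, set A (knockdown replicates 1 and 3 with control replicate 1) and set B (knockdown replicate 2 with control replicate 2). No label describes these sets, and differences within each set are given beside the pooled ones. Set B has 1 library per group, so its differences have no replicate check.

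The cells carried keratinocyte markers and almost no leukocyte markers. All 9 markers of the keratinocyte list reached a mean of 1 FPKM, with summed levels of 4243.0 to 5959.2 FPKM in knockdown libraries and 6526.8 to 8040.9 FPKM in controls. Of these 9 markers 0 passed, 8 had a log2 difference below 0, beside 48.7% of all tested genes, and PERP stood at 0.51. Of the 8, 5 had an unadjusted p under 0.05, beside 5.48% of all tested genes with such a p and a difference below 0. The part of this list in the differences below was not tested, and in bulk RNA fewer cells of a type and less RNA per cell cannot be told apart. Of 8 monocyte and macrophage markers TYROBP and AIF1 were at 0 in every library and only CD68, a lysosomal protein that other cells also make, had a mean of at least 1 FPKM. The summed level of this list was 21.6 to 29.3 FPKM in knockdown libraries and 16.6 to 18.9 FPKM in controls. Langerhans and dendritic cell markers summed to at most 0.105 FPKM in knockdown libraries and 0.242 FPKM in controls, with CD1A, CD1C and CLEC10A at 0. Neutrophil markers summed to at most 1.14 FPKM in knockdown libraries and 0.573 FPKM in controls, with FCGR3B, CSF3R and MPO at 0. The 6 fibroblast markers summed to 6.11 to 10.2 FPKM in knockdown libraries against 3.30 to 5.00 FPKM in controls, and the 5 melanocyte markers to 1.52 to 2.08 FPKM against 2.01 to 2.09 FPKM. Of the 3 fibroblast markers tested 0 passed, and their log2 differences had both signs (DCN 1.78, COL3A1 0.74, COL1A1 -0.40). The 2 above 0 had an unadjusted p under 0.05 in limma, beside 6.22% of all tested genes with such a p and a difference above 0.

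Of the 10 genes 7 lie on chromosome 2, and 5 of these (IL1A, IL1B, IL36G, IL36RN and IL1RN) lie within 360 kb of each other. In GENCODE release 29 (GRCh38), IL1B (ENSG00000125538.11) is at chromosome 2, 112829751 to 112836903 on the minus strand, IL1A (ENSG00000115008.5) at 112773915 to 112784590 on the minus strand, and IL1RN (ENSG00000136689.18) at 113107214 to 113134016 on the plus strand. IL18 (ENSG00000150782.11) is at chromosome 11, 112143251 to 112164117 on the minus strand, and IL1RAP (ENSG00000196083.9) at chromosome 3, 190514051 to 190659750 on the plus strand. Promoter windows of 300 bases, from 250 before to 50 after the RefSeq gene start (GRCh38.p14), matched 9 of the 10 genes by symbol. Those of IL1B, IL1A and IL1RN are shown because these are the ligand with the largest difference, its sister ligand on the same receptor, and the antagonist of both. Capitals mark matches on either strand to GGGNNNNNCC (a loose NF-kappaB pattern), TGANTCA (AP-1) or TATAAA, and no marked matches overlap in these 3 windows.
IL1B, chr2:112836730-112837029, minus strand: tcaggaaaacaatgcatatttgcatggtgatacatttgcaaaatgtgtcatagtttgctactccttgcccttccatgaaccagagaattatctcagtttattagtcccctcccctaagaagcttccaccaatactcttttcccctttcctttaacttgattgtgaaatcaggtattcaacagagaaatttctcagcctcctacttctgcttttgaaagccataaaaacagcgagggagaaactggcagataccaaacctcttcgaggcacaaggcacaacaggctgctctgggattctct
IL1A, chr2:112784444-112784743, minus strand: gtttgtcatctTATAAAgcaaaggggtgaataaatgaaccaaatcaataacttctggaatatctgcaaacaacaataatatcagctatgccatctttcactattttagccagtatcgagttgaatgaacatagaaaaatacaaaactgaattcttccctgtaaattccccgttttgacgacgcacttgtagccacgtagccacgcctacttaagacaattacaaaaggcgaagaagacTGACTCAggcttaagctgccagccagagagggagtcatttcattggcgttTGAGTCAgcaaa
IL1RN, chr2:113117721-113118020, plus strand: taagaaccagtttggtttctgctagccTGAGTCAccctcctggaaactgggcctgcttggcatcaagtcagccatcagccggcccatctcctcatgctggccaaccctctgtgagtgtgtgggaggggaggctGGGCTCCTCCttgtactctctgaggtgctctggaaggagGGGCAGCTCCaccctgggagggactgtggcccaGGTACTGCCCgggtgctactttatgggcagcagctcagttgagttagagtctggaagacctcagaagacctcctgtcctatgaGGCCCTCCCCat
The IL1B window held none of the 3 patterns. The IL1A window held TGANTCA at 2 places, beginning 12 bases before and 38 bases after the start, and TATAAA 239 bases before it. The IL1RN window held TGANTCA 223 bases before the start and GGGNNNNNCC at 4 places. TGANTCA was found in 2 of the 9 windows, against 7.76% of 27305 promoters, GGGNNNNNCC in 3 of the 9, against 58.0%, and TATAAA in 1 of the 9, against 3264 of the 27305. A match is a description of letters, and no binding was measured.

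IL18, IL1B and IL1RN were the most abundant members, and the order of the first pair differed between the groups. FPKM is per transcript length, so levels can be compared roughly between genes. Correlations of library deviations with GC content remained, from 0.608 in knockdown replicate 1 to -0.548 in knockdown replicate 3. The longest transcripts of the members ranged from 34.7% GC (IL33) to 50.6% GC (IL1R2). IL18 was the highest member in each of the 3 knockdown libraries and IL1B in both controls. IL1RN followed as the third in all 5 libraries, at 23.0 to 31.6 FPKM in knockdown and 28.7 to 32.9 FPKM in control libraries. IL1B and IL18 overlapped over the 5 libraries, and so did IL1A (6.95 to 18.2 FPKM) and IL1RAP (10.7 to 14.8 FPKM), whose order also differed between the groups, with IL1RAP above IL1A in the 3 knockdown libraries and below it in both controls. IL36G came next at 0.928 to 2.72 FPKM and overlapped with IL1R1 at 0.483 to 1.22 FPKM. IL36RN ranged from 0.275 to 0.488 FPKM, IL1R2 from 0.0438 to 1.64 FPKM and IL33 from 0.00201 to 0.0515 FPKM, and each of these overlapped with its neighbour in the order.

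**Figure D1:**
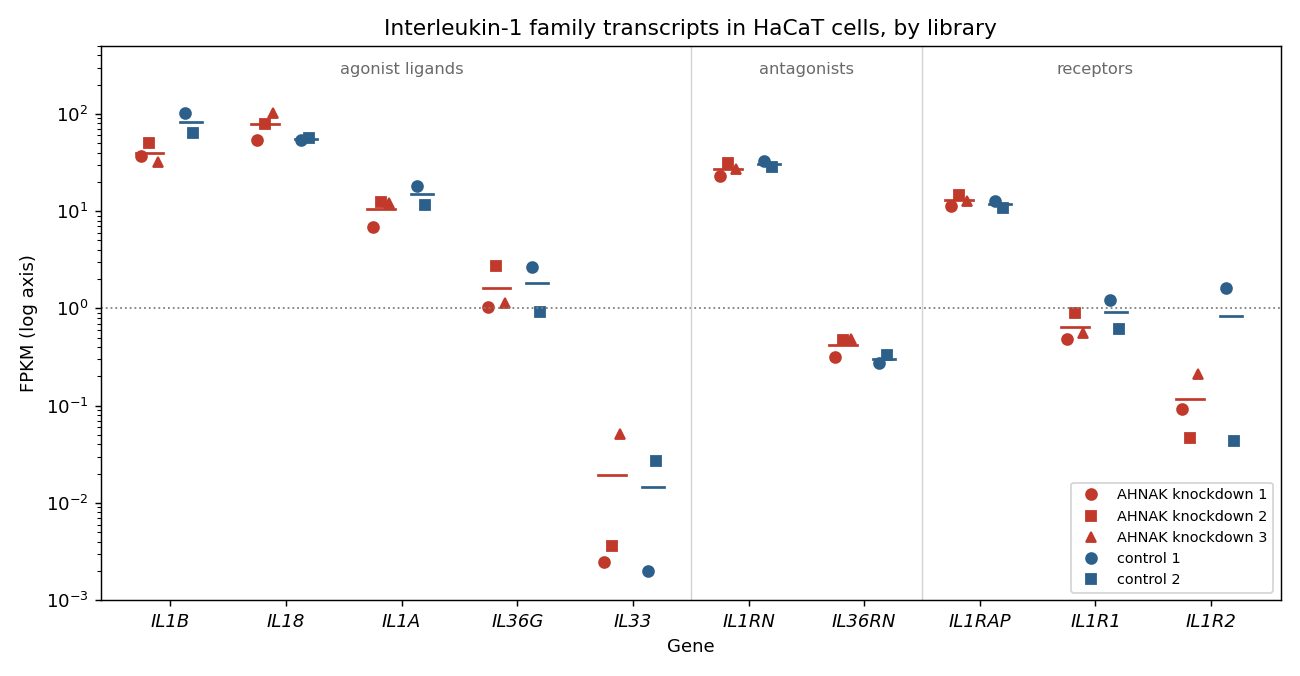
FPKM (log axis) of the 10 genes in each library, with knockdown libraries in red to the left of controls in blue; points are libraries, short lines are group means, and the dotted line is 1 FPKM. IL1B separates the groups, at 32.3 to 50.3 FPKM in knockdown and 63.4 and 103.3 FPKM in control libraries, while the points of the other 9 genes overlap between groups.

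IL1B, the secreted agonist that caspase-1 activates, showed the largest difference of the tested members. Its level was 36.5, 50.3 and 32.3 FPKM in knockdown replicates 1, 2 and 3, against 103.3 and 63.4 FPKM in control replicates 1 and 2. All 3 knockdown libraries lay below both controls, and control replicate 1 stood well above control replicate 2. Knockdown libraries averaged 39.7 ± 9.42 FPKM (SD, n = 3) and controls 83.3 ± 28.2 FPKM (SD, n = 2), which is 0.476 of the control mean. On the log2 scale the gap of -1.04 (SE 0.26, 95% confidence interval -1.68 to -0.41) did not pass over all genes (limma adjusted p = 0.382, unadjusted p = 0.00599). Only 44 of the 12196 tested genes (0.361%) had a log2 difference as low or lower. IL1B was 1 of the 6 tested members with no overlap between groups, where 32.0% of all tested genes had none (16.2% higher and 15.8% lower), and 1 of 6 with an unadjusted p under 0.05, where 11.7% of all tested genes had one (6.22% higher and 5.48% lower). Set A gave -1.58 and set B -0.33. Without control replicate 1 it was -0.69 (limma adjusted p = 0.846).

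IL1A, the sister ligand that is active without caspase-1, was at 6.95, 12.4 and 12.2 FPKM in knockdown replicates 1, 2 and 3, against 18.2 and 11.5 FPKM in control replicates 1 and 2. The groups overlapped, since control replicate 2 lay below knockdown replicates 2 and 3. They averaged 10.5 ± 3.10 FPKM (SD, n = 3) in knockdown and 14.9 ± 4.77 FPKM (SD, n = 2) in control, and the log2 difference of -0.49 (SE 0.30, 95% confidence interval -1.20 to 0.23) did not pass (limma adjusted p = 0.558). It was -0.94 within set A and 0.11 within set B. Without control replicate 1 it was -0.16, and without knockdown replicate 1 it was -0.22.

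IL18, the other substrate of caspase-1 in the family, was at 53.6, 79.6 and 102.3 FPKM in knockdown replicates 1, 2 and 3, against 54.2 and 56.0 FPKM in control replicates 1 and 2. Knockdown replicates 2 and 3 lay above both controls and knockdown replicate 1 just below them. The means were 78.5 ± 24.4 FPKM (SD, n = 3) in knockdown and 55.1 ± 1.25 FPKM (SD, n = 2) in control. The log2 difference of 0.46 (SE 0.26, 95% confidence interval -0.16 to 1.08) did not pass (limma adjusted p = 0.532). IL18 was the 1 tested agonist with a difference above 0 in both sets, at 0.45 within set A and 0.50 within set B. In set A its libraries lay apart, with knockdown replicate 1 level with control replicate 1 and knockdown replicate 3 near 102.3 FPKM. Over all genes the deviations of knockdown replicate 3 were correlated with transcript GC content at a Spearman's rho of -0.548 and those of knockdown replicate 1, where IL18 was lowest, at 0.608. The longest IL18 transcript has 42.3% GC, and the part of GC content in the spread of IL18 was not tested. After correction for GC content and length the IL18 difference was 0.29, without knockdown replicate 3 it was 0.24, and without knockdown replicate 1 it was 0.71 (limma adjusted p = 0.344, 0.574 and 0.212). The GC content and length correction gave -1.15 for IL1B, -0.61 for IL1A, -0.24 for IL36G, -0.25 for IL1RN and 0.13 for IL1RAP.

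IL36G, the epidermal IL-36 agonist, was low and varied more within the groups than between them. It was at 1.03, 2.72 and 1.13 FPKM in knockdown replicates 1, 2 and 3, against 2.68 and 0.928 FPKM in control replicates 1 and 2. The high libraries were knockdown replicate 2 and control replicate 1. On the log2 scale it differed by -0.09 (SE 0.44, 95% confidence interval -1.13 to 0.95, limma adjusted p = 0.951), at -1.01 within set A and 1.17 within set B. IL33, the nuclear alarmin that signals through IL1RL1, was close to 0 at 0.00246, 0.00363 and 0.0515 FPKM in knockdown replicates 1, 2 and 3, against 0.00201 and 0.0271 FPKM in control replicates 1 and 2. The IL33 values of knockdown replicate 1 and control replicate 1 stood at a ratio of 1.22386. That is the most frequent ratio of low genes between these libraries (22.2% of them). Equal small numbers of reads would give such a ratio, but read counts were not available. IL33 was under the filter and no fold is given.

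Summed over the 5 agonist genes, the level was 98.0, 145.0 and 148.0 FPKM in knockdown replicates 1, 2 and 3, against 178.4 and 131.8 FPKM in control replicates 1 and 2. The sums overlapped between groups, while their make-up differed. IL1B made 37.2%, 34.7% and 21.8% of the sum in knockdown replicates 1, 2 and 3, against 57.9% and 48.1% in control replicates 1 and 2. IL18 made 54.6%, 54.9% and 69.1% of the sum in knockdown replicates 1, 2 and 3, against 30.4% and 42.5% in control replicates 1 and 2. Shares of 1 sum are tied to each other, and these shares are a description chosen after the values were seen.

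**Figure D2:**
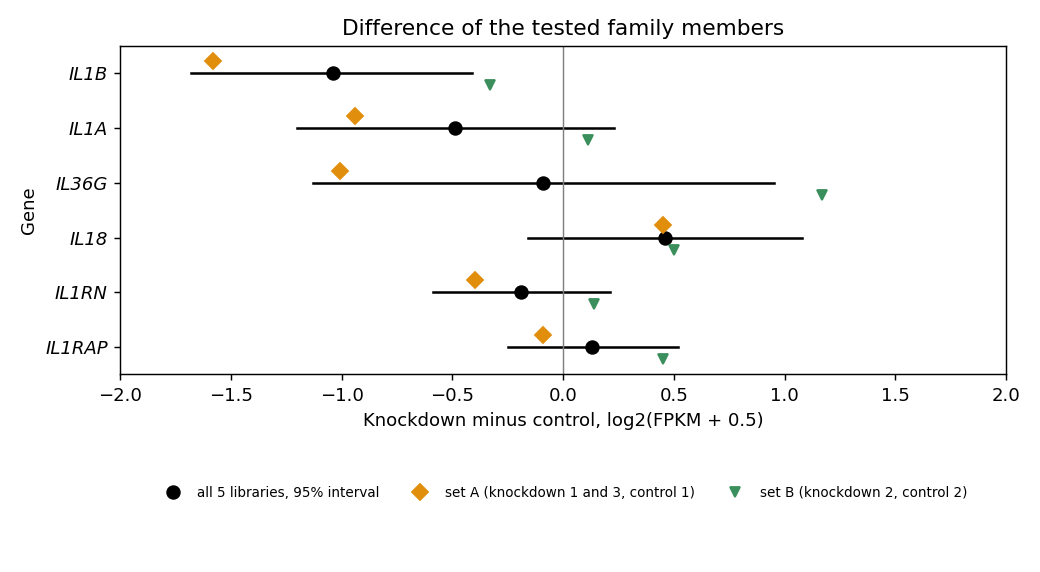
Difference in log2(FPKM + 0.5), knockdown minus control, for the 6 tested genes; black points and lines are the fit over 5 libraries with its 95% confidence interval, diamonds are set A and triangles are set B. Only the interval of IL1B, from -1.68 to -0.41, lies apart from 0, and the sets differ in sign for IL1A, IL36G, IL1RN and IL1RAP.

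IL1RN, the antagonist of IL1A and IL1B, was among the steadiest members. It was at 23.0, 31.6 and 26.9 FPKM in knockdown replicates 1, 2 and 3, against 32.9 and 28.7 FPKM in control replicates 1 and 2. The groups overlapped, and the highest library was 1.43 times the lowest. The means were 27.1 ± 4.29 FPKM (SD, n = 3) in knockdown and 30.8 ± 3.01 FPKM (SD, n = 2) in control, with a log2 difference of -0.19 (SE 0.17, 95% confidence interval -0.59 to 0.21, limma adjusted p = 0.672; set A -0.40, set B 0.14). IL36RN, the antagonist of the IL-36 receptor, was under the filter at 0.314, 0.474 and 0.488 FPKM in knockdown replicates 1, 2 and 3, against 0.275 and 0.333 FPKM in control replicates 1 and 2. Its control replicate 2 lay above knockdown replicate 1, so the groups overlapped.

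The ratio of antagonist to agonist transcript was then taken within each library, where scaling between libraries cancels. IL1RN stood to IL1B at 0.630, 0.628 and 0.833 in knockdown replicates 1, 2 and 3, against 0.319 and 0.452 in control replicates 1 and 2. The groups did not overlap, with means of 0.697 ± 0.118 (SD, n = 3) in knockdown and 0.385 ± 0.0943 (SD, n = 2) in control. On the log2 scale this ratio differed by 0.86, with 1.18 within set A, 0.47 within set B and 0.61 without control replicate 1. The ratio contains IL1B, whose own groups did not overlap, and was not tested.

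The other antagonist ratios overlapped between groups. IL1RN stood to IL1A at 3.31, 2.55 and 2.20 in knockdown replicates 1, 2 and 3, against 1.81 and 2.50 in control replicates 1 and 2. IL36RN stood to IL36G at 0.303, 0.174 and 0.433 in knockdown replicates 1, 2 and 3, against 0.102 and 0.358 in control replicates 1 and 2. These 2 ratios thus show no separation of the groups. IL1B stood to IL18 at 0.681, 0.632 and 0.315 in knockdown replicates 1, 2 and 3, against 1.91 and 1.13 in control replicates 1 and 2, a pair chosen after the values were seen. That ratio was below 1 in every knockdown library and above 1 in both controls.

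**Figure D3:**
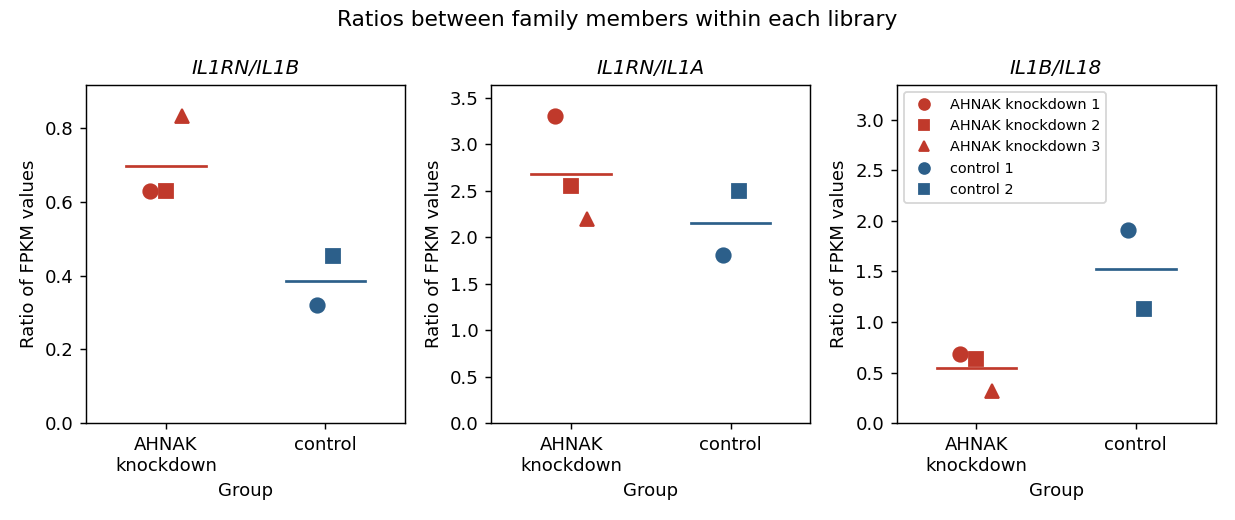
Ratios of FPKM values within each library for IL1RN to IL1B, IL1RN to IL1A and IL1B to IL18, with knockdown libraries in red on the left and controls in blue on the right; lines are group means. The groups are apart for IL1RN to IL1B (0.628 to 0.833 in knockdown, 0.319 and 0.452 in control) and for IL1B to IL18, and they overlap for IL1RN to IL1A.

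Among the receptors only the accessory chain was abundant. IL1RAP, shared by the IL-1, IL-33 and IL-36 receptors, was at 11.3, 14.8 and 12.8 FPKM in knockdown replicates 1, 2 and 3, against 12.8 and 10.7 FPKM in control replicates 1 and 2. The groups overlapped, and its log2 difference of 0.13 (SE 0.16, 95% confidence interval -0.25 to 0.52) did not pass (limma adjusted p = 0.758; set A -0.09, set B 0.45). IL1R1, the ligand-binding chain for IL1A and IL1B, was under the filter at 0.483, 0.891 and 0.565 FPKM in knockdown replicates 1, 2 and 3, against 1.22 and 0.621 FPKM in control replicates 1 and 2. Control replicate 1 was the highest library and control replicate 2 lay within the knockdown range.

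IL1R2, the decoy receptor, rested on 1 library. It was at 0.0933, 0.0471 and 0.214 FPKM in knockdown replicates 1, 2 and 3, against 1.64 and 0.0438 FPKM in control replicates 1 and 2. Control replicate 1 stood 37.5 times above control replicate 2, which was the lowest library of all 5. In set B the values of knockdown replicate 2 and control replicate 2 stood at a ratio of 1.07523. That is the most frequent ratio of low genes between them (17.0% of them), as equal small numbers of reads would give, though counts were not available. The ratio of IL1R2 to IL1R1 was 0.193, 0.0528 and 0.379 in knockdown replicates 1, 2 and 3, against 1.35 and 0.0705 in control replicates 1 and 2. Its groups overlapped.

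Control replicate 1 was the highest library for IL1B, IL1A, IL1RN, IL1R1 and IL1R2, and knockdown replicate 2 the highest for IL36G and IL1RAP. Of the 6 tested members 4 had a difference below 0 and 2 above 0, where 48.7% of all tested genes were below 0. Their median was -0.14, beside 0.01 for all tested genes. In 4 of the 6 the sign differed between set A and set B, where 44.3% of all tested genes did so. When all genes were tested without a filter, IL36RN, IL1R1, IL33 and IL1R2 had limma adjusted p of 0.601, 0.707, 0.95 and 0.648.

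Other ligands and receptors of the family were mostly under the filter. Of 12 listed genes 3 had a mean of at least 1 FPKM, 4 stayed below 0.1 FPKM in every library, and 2 of these 4 (the IL-36 agonists IL36A and IL36B) were at 0 throughout. Among those under the filter IL1F10, which encodes IL-38, was at 0.188, 0.263 and 0.216 FPKM in knockdown replicates 1, 2 and 3, against 0.0412 and 0.0363 FPKM in control replicates 1 and 2. Its groups did not overlap, and it is named here after its values were seen. IL18R1 and IL18RAP, higher in knockdown, and IL1RL1, lower, were also under the filter with no overlap, but by small gaps. The lowest knockdown library against the highest control was 0.63 against 0.609 FPKM for IL18R1 and 0.00432 against 0.00308 FPKM for IL18RAP. For IL1RL1 the highest knockdown library was at 0.0975 FPKM and the lowest control at 0.105 FPKM. Of all tested genes 32.0% had no overlap, a share that leaves out genes under the filter such as these. SIGIRR, an inhibitory receptor of the family, was the highest, at 33.0, 27.0 and 21.8 FPKM in knockdown replicates 1, 2 and 3, against 28.7 and 29.8 FPKM in control replicates 1 and 2. Its groups overlapped. IL18BP, the secreted decoy for IL18, was at 4.57, 6.62 and 3.53 FPKM in knockdown replicates 1, 2 and 3, against 4.92 and 2.98 FPKM in control replicates 1 and 2, and overlapped as well. IL37, an anti-inflammatory ligand, was at 0.427, 1.12 and 0.904 FPKM in knockdown replicates 1, 2 and 3, against 2.24 and 1.13 FPKM in control replicates 1 and 2. Its groups were separated by the small gap between knockdown replicate 2 and control replicate 2, and its difference of -0.72, at -1.26 within set A and -0.01 within set B, did not pass (limma adjusted p = 0.444). IL37 averaged 0.816 FPKM in knockdown and 1.68 FPKM in control, so it reached the filter only through the controls.

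Of 15 tested genes of the inflammasome and of ligand processing, 0 passed over all genes. Their median log2 difference was -0.08 and 3 had an unadjusted p under 0.05, all with a difference below 0, beside 5.48% of all tested genes. NLRP1, the inflammasome sensor of human keratinocytes, was at 2.88, 3.10 and 3.07 FPKM in knockdown replicates 1, 2 and 3, against 5.18 and 4.64 FPKM in control replicates 1 and 2, and the groups did not overlap. Its log2 difference was -0.62 (SE 0.13, limma adjusted p = 0.372), with -0.71 within set A and -0.51 within set B. PYCARD, the adaptor that joins sensors to caspase-1, averaged 31.2 ± 3.99 FPKM (SD, n = 3) in knockdown and 42.0 ± 7.02 FPKM (SD, n = 2) in control, and differed by -0.42 (limma adjusted p = 0.418), with -0.15 within set A and -0.78 within set B. GSDME, a pore-forming gasdermin, averaged 9.69 ± 1.18 FPKM (SD, n = 3) in knockdown and 14.3 ± 1.44 FPKM (SD, n = 2) in control, and differed by -0.54 (limma adjusted p = 0.387), with -0.66 within set A and -0.42 within set B. All 3 had every knockdown library below both controls. Of the 15 genes 5 (33.3%) had no overlap between groups in either direction, beside 32.0% of all tested genes. The most abundant genes of this list, CAPN1 and CAPN2, which encode calpains that can cut the IL1A precursor, had log2 differences of 0.04 (0.00 in A, 0.10 in B) and -0.13 (-0.12 in A, -0.17 in B).

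The list of receptor-proximal signalling genes had 17 tested genes. Of these 0 passed and 0 had an unadjusted p under 0.05 in limma, beside 11.7% of all tested genes with such a p. A difference above 0 was found in 6 and below 0 in 11, where 48.7% of all tested genes were below 0. The median was -0.08, and 3 genes (17.6%) had no overlap between groups, beside 32.0% of all tested genes. CHUK and IKBKB, the kinases that release NF-kappaB from its inhibitors, differed by -0.36 (-0.25 in A, -0.56 in B) and -0.28 (-0.21 in A, -0.39 in B). Both had every knockdown library below both controls (limma adjusted p = 0.45 and 0.471). TAB2, an adaptor of the kinase TAK1, differed by -0.23 (-0.05 in A, -0.49 in B). The kinase IRAK1, the most abundant gene of the list, averaged 131 ± 30.2 FPKM (SD, n = 3) in knockdown and 119 ± 22.4 FPKM (SD, n = 2) in control (-0.17 in A, 0.52 in B, log2). MAP2K3, a kinase upstream of p38, was the next most abundant and differed by -0.23 (-0.38 in A, -0.05 in B).

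Genes known to respond to IL-1 in keratinocytes had differences of both signs. Of 24 tested genes 0 passed, 3 had an unadjusted p under 0.05 with a difference above 0 and 2 with a difference below 0, beside 6.22% and 5.48% of all tested genes. Of the 24 genes 8 (33.3%) had no overlap between groups, beside 32.0% of all tested genes. The list median was -0.15, with -0.36 within set A and 0.41 within set B, so the sets had opposite signs. S100A7, an antimicrobial protein of inflamed epidermis, was at 2.42, 2.49 and 1.78 FPKM in knockdown replicates 1, 2 and 3, against 0.672 and 0.647 FPKM in control replicates 1 and 2, and S100A9, a subunit of calprotectin, differed by 0.99, at 0.80 within set A and 1.27 within set B. S100A7 averaged 2.23 FPKM in knockdown and 0.66 FPKM in control, so it reached the filter only through the knockdown libraries. Its place among the 3 genes above 0 depends on that. ICAM1, a leukocyte adhesion receptor, was at 6.17, 7.84 and 5.27 FPKM in knockdown replicates 1, 2 and 3, against 12.6 and 8.85 FPKM in control replicates 1 and 2. The order of its libraries was that of IL1B, with control replicate 1 highest and knockdown replicate 3 lowest, and it differed by -1.08 within set A and -0.17 within set B. The limma adjusted p were 0.372 for S100A7 and S100A9 and 0.389 for ICAM1. The most abundant genes of the list, TNFAIP2 and the iron-binding lipocalin LCN2, differed by -0.20 (-0.27 in A, -0.07 in B) and 0.14 (0.16 in A, 0.13 in B).

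**Figure D4:**
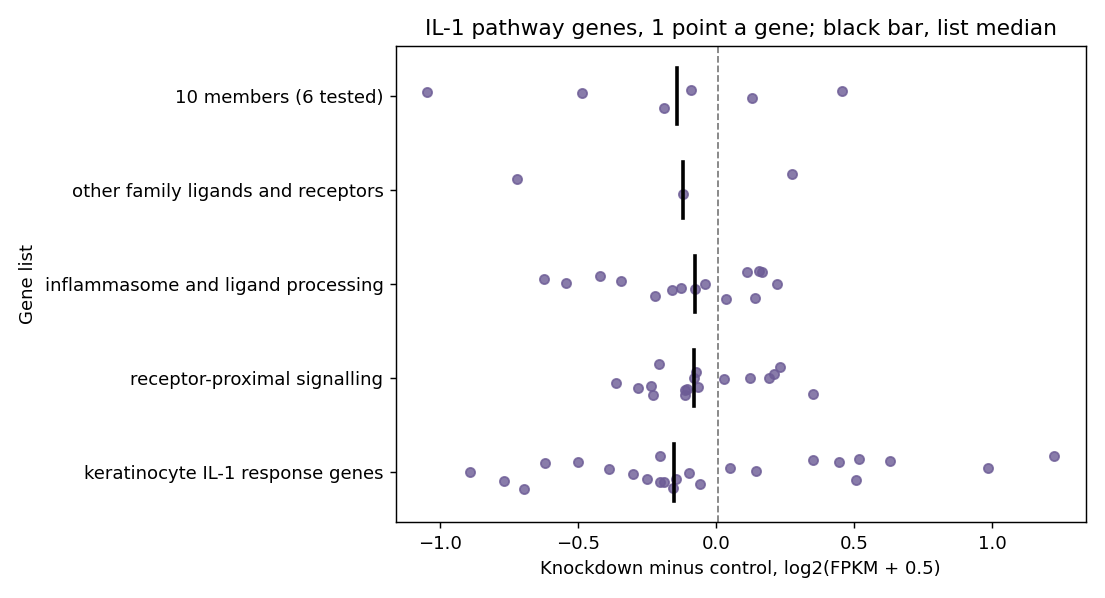
Difference in log2(FPKM + 0.5), knockdown minus control, for the tested genes of the family and of 4 pathway lists, 1 point a gene with the list median as a black bar; the dashed line is the median of all tested genes, 0.01. The medians of the lists lie between -0.15 and -0.08, and each list has genes on both sides of 0.

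The genes whose profiles lay nearest to a member were looked up among 8671 genes outside the family with a mean of at least 5 FPKM. Likeness was the root mean square distance between log2(FPKM + 0.5) profiles over the 5 libraries, each centred on its own mean, and it says nothing of shared control. Nearest to IL1B was NUAK1, a kinase related to AMPK, at 0.136. NUAK1 was at 4.99, 6.52 and 4.13 FPKM in knockdown replicates 1, 2 and 3, against 11.7 and 7.09 FPKM in control replicates 1 and 2, the same order of libraries as IL1B. Nearest to IL18 were AP3S1, a vesicle adaptor subunit, at 0.022, and the small nucleolar RNA locus SNORD58C at 0.040. AP3S1 was at 25.8, 37.4 and 48.8 FPKM in knockdown replicates 1, 2 and 3, against 25.7 and 25.8 FPKM in control replicates 1 and 2. IL1RN lay nearest to the integrin chains ITGAV (0.036) and ITGA2 (0.054), and IL1RAP to the receptor LGR4 (0.014) and PANK3 (0.019), an enzyme of coenzyme A synthesis. IL1A lay nearest to the small nucleolar RNA loci SNORD28 (0.087) and SNORA62 (0.107), and IL36G to the microRNA locus MIR4784 (0.122) and the ion transporter SLC12A2 (0.209). Among the members themselves IL1RN and IL1RAP were the nearest pair, at 0.16, and IL1B and IL18 the farthest, at 0.86.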

How the data were processed

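The authors deposited 1 table of FPKM values, whose rows are gene symbols and whose columns are libraries. HISAT2 2.0.1 and StringTie 2.0.6 were used, per the submitters' processing notes, which also name GRCh38 and mm9 with no role stated. Annotation and strandedness: not given in the sources used here. FPKM hold no read totals, so the depth is unknown and no intervals from counts are given. FPKM sums ranged from 374214.8 to 420540.9 per library, and 12087 to 12311 genes reached 1 FPKM.

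Genes averaging 1 FPKM or more were fitted as log2(FPKM + 0.5) with limma 3.58.1 in R 4.3.3 (lmFit, eBayes with an intensity trend), two-sided for knockdown against control, with Benjamini-Hochberg adjustment over 12196 genes. Exact permutation of 2 against 3 libraries cannot go below 0.1 and was not used. Libraries whose low genes (under 0.3 FPKM) shared 1 value ratio, to 5 decimals, in at least 10% of cases were put in 1 set. That share was 17.0% to 25.1% within sets and at most 3.96% between them.

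The members and lists were chosen with earlier results of these data known. Named were all members, AHNAK, other family genes averaging 1 FPKM or more, per pathway list the 3 genes of smallest p and 2 of highest mean, and the 2 nearest profiles per tested member; 1 gene so taken is not reported here. This limma fit was tested on simulated data. It called 1.8% of simulated log2 changes of 0.5, 42.6% of those of 1 and 87.4% of those of 2. Of unchanged genes it called 0.0325%. Simulated errors were independent, so deviations that many genes of a library share were not covered. The spreads were also shuffled between genes, which breaks their link to level, and few genes were changed. These rates are therefore not the power of the comparison made here. As alternatives, the pseudocount, filter, scaling and variance model were varied, along with array weights, a replicate block, a set term, a GC content and length correction (loess, span 0.3, GENCODE release 29) and each library left out. Promoters are RefSeq's (GRCh38.p14).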

Additional observations from a re-analysis of the deposited data

How the results depend on the processing

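No family member passed the adjusted threshold in any of the alternatives run, each fitted with limma. IL1B kept a log2 difference below 0 in 18 of 18 fits (-1.39 to -0.69, unadjusted p 0.000644 to 0.0348, adjusted p 0.0665 to 0.846), as did IL1A (-0.81 to -0.16) and IL1RN (-0.30 to -0.02). IL18 (0.24 to 0.71) and IL1RAP (0.01 to 0.27) stayed above 0 in 18 of 18. Fits that changed only the filter or the variance model kept each difference by construction. IL1B had every knockdown library below both controls, so leaving out 1 library could not turn its sign. These counts of fits are therefore not independent support. IL36G was below 0 in 12 of 17 fits (lowest -0.67, without control replicate 2), and above 0 with array weights (0.42), the replicate block (0.06), and without knockdown replicate 1 (0.10), knockdown replicate 3 (0.06) or control replicate 1 (0.49). The replicate block and the fit without knockdown replicate 3 give the same differences, since no other library has that number. Within set B IL36G was 1.17, IL1A 0.11 and IL1RN 0.14, and within set A IL1RAP was -0.09. The cause of these changes was not tested.

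In the fits without a control, where both ends of the IL1B range lie, the spread comes from the knockdown libraries and the lone control is assumed to vary like them. Leaving out 1 library gave 0 to 9 genes past the threshold, 564 to 2092 with an unadjusted p under 0.05, and 1 to 2 such members. Genes past the threshold numbered 1 with a pseudocount of 1, with no variance trend or with robust empirical Bayes, and 1428 with array weights, where AHNAK passed (-1.55). Unadjusted p under 0.05 numbered 862 at a mean of at least 5 FPKM (fewer genes tested), 4285 with array weights (2 members, IL1B and IL18), 2163 after correction for GC content and length and 828 with a term for the set. When libraries were rescaled to equal sums, 512 of these were higher and 820 lower, against 759 and 668. The log2 ratio differences were 0.47 for IL1RN to IL1B and -1.04 for IL36RN to IL36G within set B. With 1 library left out they ranged from 0.61 to 1.12 and from -0.34 to 1.47, and those of IL1RN to IL1A from 0.08 to 0.55 and of IL1R2 to IL1R1 from -3.10 to 1.15.

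Knockdown and control libraries share replicate numbers 1 and 2, and same-numbered libraries fall in the same set (1 in A, 2 in B). The correlation of deviations of same-numbered libraries was -0.0638 and -0.578. Across the sets, knockdown replicate 2 stood at 0.578 with control replicate 1, and knockdown replicate 3 at 0.401 with control replicate 2. Deviations of 2 controls from their own mean mirror each other, so these correlations cannot decide whether libraries were paired. With the replicate block IL1B was at -0.91 (limma adjusted p = 0.619), 0 genes passed and 977 had an unadjusted p under 0.05. Leaving out knockdown replicate 3, which the block sets aside, gave the same -0.91. Depth is unknown, and IL33, IL1R2 and other genes near 0 rest on few reads.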
